A study of Mus musculus with 8 samples.

Results

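The genes described here are the aryl hydrocarbon receptor (AhR) and the genes best known to work with it or to be switched on by it, followed in mouse dendritic cells (DCs) exposed to an Echinacea extract. They were taken by symbol: the receptor *Ahr*, its partner *Arnt*, the repressor *Ahrr*, and the targets *Tiparp*, *Cyp1a1*, *Cyp1b1* and *Nqo1*. Every probe set annotated to exactly 1 of these symbols was used, which gave 16 probe sets for the 7 genes, out of 45037 probe sets and 18193 genes measured. A probe set is a group of short probes on the array that reads 1 transcript or a few related ones, and for a gene with several, the probe set with the highest mean log2 signal is the main one.

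AhR is a transcription factor that rests in the cytoplasm, bound to heat shock protein, until it binds a ligand. Plant compounds, tryptophan metabolites and pollutants such as dioxin can act as ligands. The ligand-bound receptor enters the nucleus, pairs with ARNT and binds a short DNA motif, the xenobiotic response element (XRE), in its target genes. Among these targets are genes of its own restraint, *Ahrr* and *Tiparp*. In DCs, AhR is known for its influence on differentiation and on the enzymes that break down tryptophan.

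The cells were bone marrow-derived DCs (BMDCs) of female BALB/c mice, 6 weeks old by the methods, grown for 9 days with GM-CSF (200 U/mL by the labels, a higher concentration by the methods). The loose, unattached cells of these cultures served as the immature DCs. They then received [BF/S+L/Ep], a chemically defined extract of *Echinacea purpurea*, at 75 μg/mL in DMSO, or DMSO alone, and every culture held 0.1% DMSO. RNA was read on Affymetrix Mouse Genome 430 arrays in 4 groups of 2 arrays: [BF/S+L/Ep] for 4 h, DMSO for 4 h, [BF/S+L/Ep] for 12 h and DMSO for 12 h. The labels number the arrays of a group as replicates, and the paper calls them biological sample replicates. Neither states which cultures or mice each array came from, so p-values measure only the spread between these arrays.

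Values are MAS5 signals, an intensity on the linear scale that the authors scaled to a common trimmed mean on each array. A signal counts as above background where it exceeds the background reference, the 95th percentile of the signals of 83 chemosensory receptor probe sets (smell, pheromone and taste) on the same array, since no role of these receptors in DCs is known. The reference lay between 66.7 and 76.1 on the 4 extract arrays and between 82.0 and 107 on the 4 DMSO arrays, so the groups did not overlap, and 53.2% to 54.9% of probe sets exceeded it on extract arrays against 48.8% to 51.2% on DMSO arrays. All 14 DC markers listed, among them *Itgax*, which encodes CD11c, exceeded the reference on 4 or more arrays, and *Itgax* itself had an averaged log2 fold change of 0.01 (adjusted p = 0.985, limma). All 7 measured T and NK cell markers were under the reference on all 8 arrays. Fewer cells of a type and less RNA per cell cannot be told apart in RNA from whole cultures.

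Because the members are read as a set of AhR targets, their promoters were searched for the AhR motif. RefSeq promoter sequences (GRCm38.p6) were at hand for 6 of the 7 genes, all but *Ahr*, and the 250 bases before the annotated start were used. The core of the XRE was searched as GCGTG, and a longer form as TNGCGTG, which contains the core. The core of the antioxidant response element (ARE), through which NRF2 acts on genes such as *Nqo1*, was searched as TGACNNNGC. Each was searched on both strands. Of 32851 mouse promoters of the same length, 28.2% held at least 1 XRE core, 2.77% held at least 3, 4.1% held the longer form and 10.2% held the ARE core. The 4 promoters shown are those of the target and repressor genes with higher signals in extract arrays, in lower case with every XRE core on either strand in capitals (GCGTG on the gene's strand, CACGC where the core is on the other strand).
Ahrr (chr13:74292332-74292581, minus strand): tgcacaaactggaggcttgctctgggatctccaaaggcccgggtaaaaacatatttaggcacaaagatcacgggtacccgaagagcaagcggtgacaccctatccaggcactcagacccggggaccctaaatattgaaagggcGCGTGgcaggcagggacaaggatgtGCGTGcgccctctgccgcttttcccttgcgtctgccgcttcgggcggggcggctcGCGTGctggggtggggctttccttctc
Tiparp (chr3:65528197-65528446, plus strand): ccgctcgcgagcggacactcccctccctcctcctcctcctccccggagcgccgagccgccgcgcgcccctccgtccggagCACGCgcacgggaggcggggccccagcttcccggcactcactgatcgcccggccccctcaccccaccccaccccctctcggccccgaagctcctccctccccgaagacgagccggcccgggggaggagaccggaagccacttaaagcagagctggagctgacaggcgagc
Cyp1b1 (chr17:79715062-79715311, minus strand): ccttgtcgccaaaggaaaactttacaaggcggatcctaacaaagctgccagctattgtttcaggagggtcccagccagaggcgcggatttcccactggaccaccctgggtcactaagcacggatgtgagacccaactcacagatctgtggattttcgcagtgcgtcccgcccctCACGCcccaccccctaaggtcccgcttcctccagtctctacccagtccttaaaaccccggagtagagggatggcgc
Nqo1 (chr8:107403206-107403455, minus strand): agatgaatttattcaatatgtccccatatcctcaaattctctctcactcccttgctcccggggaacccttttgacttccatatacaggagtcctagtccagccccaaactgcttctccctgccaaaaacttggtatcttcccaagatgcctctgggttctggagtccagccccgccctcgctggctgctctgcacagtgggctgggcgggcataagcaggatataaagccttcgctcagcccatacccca

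The *Ahrr* promoter held 3 XRE cores, all on the strand of the gene, with their first bases at -107, -82 and -27 from the start, and the last of them lay in the longer form. *Tiparp* held 1 core at -170 and *Cyp1b1* held 1 at -76, each on the other strand. In the windows of *Cyp1a1* (chr9:57697363-57697612) and *Arnt* (chr3:95434140-95434389) there was 1 core each, at -54 and at -29, and *Arnt* also held 2 ARE cores, at -127 and -50. The *Nqo1* window held none of the 3 motifs. A match describes letters in a short window and not a bound site, and GCGTG is also a form of the core that hypoxia-inducible factors bind.

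**Figure D1:**
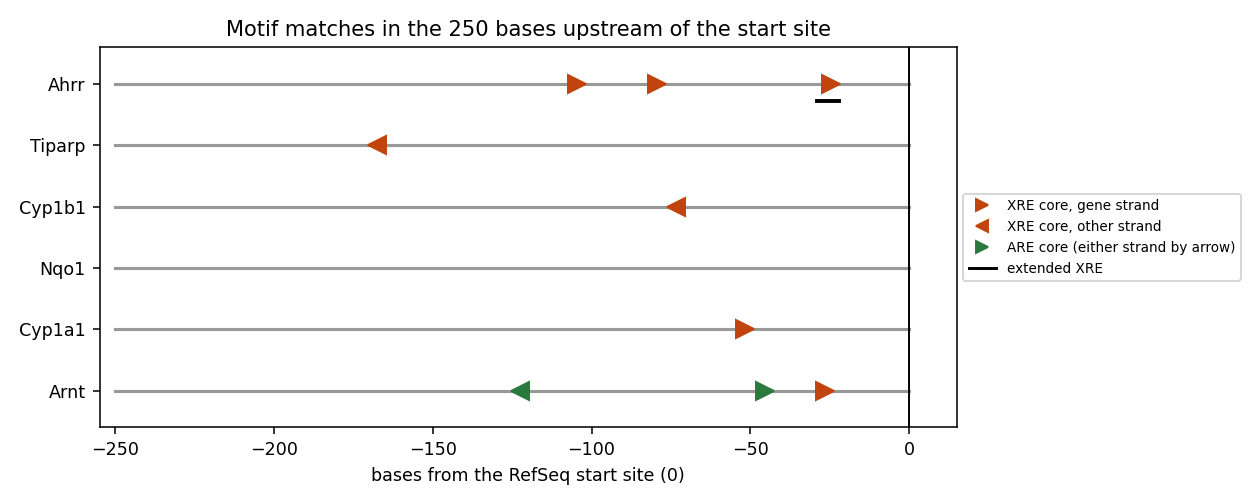
Matches to the XRE core (red arrowheads, pointing with the strand), the longer XRE form (black bar) and the ARE core (green) in the 250 bases before the RefSeq start of 6 genes, by distance from the start in bases. *Ahrr* holds 3 XRE cores, *Tiparp*, *Cyp1b1*, *Cyp1a1* and *Arnt* hold 1 each, and *Nqo1* holds none.

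Of the 16 member probe sets, 9 exceeded the background reference on every array, 13 on at least 4 arrays, 3 on fewer than 4 and 2 of these on none. Of the 7 main probe sets, 5 were above it on all 8 arrays, *Cyp1b1* on 4 and *Cyp1a1* on none. The repressor *Ahrr* and the target *Tiparp* were higher with [BF/S+L/Ep] than with DMSO when both times were averaged, and *Ahrr* also at 4 h. *Nqo1* and *Cyp1b1* had higher signals on every extract array than on any DMSO array of the same time but did not pass the test, and *Ahr* and *Arnt*, the receptor and its partner, showed no change that the test could detect.

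**Figure D2:**
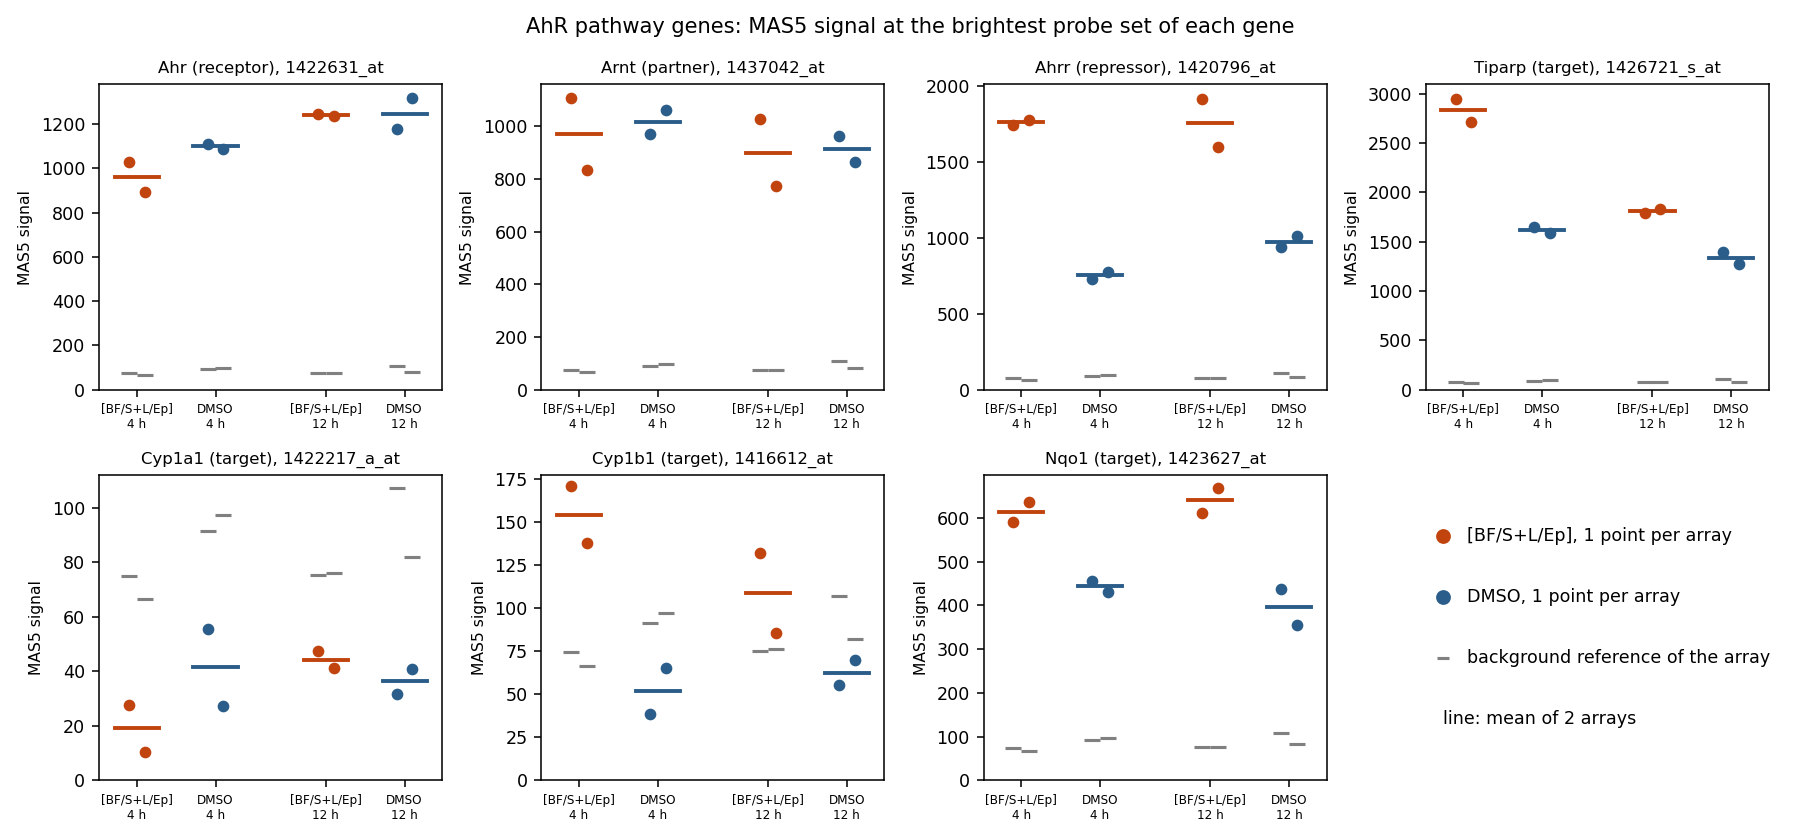
MAS5 signal (linear scale from 0) of the main probe set of each gene on each of the 8 arrays, [BF/S+L/Ep] in red and DMSO in blue at 4 h and 12 h, with the mean of 2 arrays as a line and the background reference of each array as a grey dash. *Ahrr*, *Tiparp*, *Cyp1b1* and *Nqo1* lie higher on extract arrays at both times, while every *Cyp1a1* signal, 10.4 to 55.5, lies under its reference.

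*Ahr* encodes the receptor itself. At its main probe set, 1422631_at, the signals at 4 h were 1030.1 and 891.2 in extract arrays, against 1111.5 and 1088.4 in DMSO arrays. At 12 h they were 1246.3 and 1235.3 in extract arrays and 1176.5 and 1316.8 in DMSO arrays. Both extract arrays thus lay under both DMSO arrays at 4 h, and between them at 12 h. The fold change was 0.871 at 4 h (95% interval 0.72 to 1.05, adjusted p = 0.997), 0.997 at 12 h (0.824 to 1.21, adjusted p = 0.999) and 0.932 on the average of both times (0.814 to 1.07, adjusted p = 0.855), all from limma. The interval on the average reaches down to 0.814 of the DMSO level and up to 1.07 times it. In order of mean signal the groups ran [BF/S+L/Ep] at 4 h (961 ± 98.2), DMSO at 4 h (1100 ± 16.3), [BF/S+L/Ep] at 12 h (1240.8 ± 7.78) and DMSO at 12 h (1246.7 ± 99.2; SD, n = 2 arrays each), and neither treatment step in this order passed. The step between DMSO at 4 h and [BF/S+L/Ep] at 12 h, which differ in treatment and time, was not tested. A second, dim probe set, 1450695_at, had 93.8 and 130.0 in extract arrays at 4 h, where both DMSO arrays, at 89.0 and 41.7, were under the reference. It was at least 1.17-fold higher there (adjusted p = 0.997), so its direction at 4 h was opposite to that of the main probe set and neither passed.

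*Arnt* encodes the partner that AhR needs to bind DNA and that the hypoxia-inducible factors also use. The main probe set, 1437042_at, had 1106.1 and 832.2 in extract arrays and 971.9 and 1060.4 in DMSO arrays at 4 h. Its signals at 12 h were 1025.6 and 771.0 in extract arrays and 962.8 and 864.0 in DMSO arrays. The groups overlapped at both times, and the averaged fold change was 0.960 (0.800 to 1.15, adjusted p = 0.952). The group means ran DMSO at 4 h (1016.2 ± 62.6), [BF/S+L/Ep] at 4 h (969 ± 194), DMSO at 12 h (913 ± 69.9) and, lowest, extract at 12 h (898 ± 180), and each step was smaller than the spread within these groups. Probe set 1419996_s_at, whose suffix marks probes that can be shared with other transcripts, overlapped as well, with an averaged fold change of 0.888 (0.745 to 1.06, adjusted p = 0.802). The dimmer 1421721_a_at had 194.3 and 264.4 in extract arrays against 139.3 and 159.5 in DMSO arrays at 4 h, and 235.4 and 273.8 in extract arrays against 208.8 and 166.9 in DMSO arrays at 12 h. Here the extract arrays were higher at both times, and the averaged fold change of 1.44 (1.06 to 1.95) did not pass (adjusted p = 0.626). The last of the *Arnt* probe sets, 1449696_at and 1425064_at, were dim and above the reference on 5 arrays each. Treatments overlapped at 1425064_at at both times, and at 1449696_at at 4 h. At 12 h 1449696_at had 65.7 and 67.1 in extract arrays, both under the reference, against 117.6 and 107.6 in DMSO arrays. It was at least 1.49-fold lower there, which did not pass (adjusted p = 0.896, limma on the fitted signals). The probe sets of *Arnt* therefore did not share a direction.

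*Ahrr* encodes a protein that resembles AhR, competes with it for ARNT and lowers the expression of its targets. Its only probe set, 1420796_at, had 1744.8 and 1773.3 in extract arrays at 4 h, against 730.8 and 775.3 in DMSO arrays. Its signals at 12 h were 1916.7 and 1596.1 in extract arrays, against 938.5 and 1012.2 in DMSO arrays. Every extract array was above every DMSO array of either time, and each extract signal was 2.25 to 2.43 times each DMSO signal at 4 h and 1.58 to 2.04 times at 12 h. *Ahrr* rose 2.34-fold at 4 h (95% interval 1.93 to 2.83, or 1.22 on the log2 scale with a standard error of 0.13, adjusted p = 0.0133), where it had the smallest p of all probe sets. On the average of both times it rose 2.05-fold (1.79 to 2.34, or 1.03 on the log2 scale with a standard error of 0.09, adjusted p = 6.27e-04), at place 3 of 45037 by p. At 12 h the fold was 1.79 (1.48 to 2.17), which did not pass (adjusted p = 0.0681). The log2 fold change at 12 h minus that at 4 h was -0.38 (standard error 0.18), which did not pass either (unadjusted p = 0.0552, adjusted p = 1.0). The call at 4 h was lost without any 1 of the 4 arrays of that time (adjusted p = 0.146 and 0.0813 without extract replicate 1 or 2, 0.222 and 0.0833 without DMSO replicate 1 or 2), while that on the average was lost in none of the 8 cases with 1 array left out (0.00347 to 0.0123).

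The order of the *Ahrr* means was [BF/S+L/Ep] at 4 h (1759 ± 20.2) and at 12 h (1756.4 ± 227), then DMSO at 12 h (975 ± 52.1) and at 4 h (753 ± 31.5). The extract groups did not differ between times beyond their spread (fold 0.994 at 12 h over 4 h, 0.821 to 1.2, adjusted p = 0.99). In DMSO, both arrays at 12 h were above both at 4 h, with a fold of 1.29 (1.07 to 1.57) that did not pass (adjusted p = 0.208). The fold at 12 h, smaller by an amount that did not pass the test, was measured against the higher of the DMSO means.

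*Tiparp* encodes a mono-ADP-ribosyltransferase of the PARP family that AhR induces and that in turn limits AhR. It was read by 3 probe sets, each brighter than the reference on every array. The brightest, 1426721_s_at, had 2947.8 and 2713.7 in extract arrays against 1648.7 and 1587.2 in DMSO arrays at 4 h. At 12 h its signals were 1788.9 and 1831.6 in extract arrays against 1394.6 and 1276.3 in DMSO arrays. The extract arrays were higher at both times, by more at 4 h. The averaged rise was 1.54-fold (1.37 to 1.73, or 0.62 on the log2 scale with a standard error of 0.08, adjusted p = 0.00764), with 1.75-fold at 4 h (1.48 to 2.06, adjusted p = 0.055) and 1.36-fold at 12 h (1.15 to 1.6, adjusted p = 0.427), neither of which passed alone. The suffix of this probe set marks probes that can be shared with other transcripts.

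The other probe sets of *Tiparp* had the same direction. Probe set 1452161_at had 1391.4 and 1234.0 in extract arrays against 730.4 and 637.2 in DMSO arrays at 4 h, and 793.5 and 897.5 in extract arrays against 581.9 and 468.3 in DMSO arrays at 12 h. Probe set 1452160_at had 740.4 and 1014.9 in extract arrays against 334.1 and 374.8 in DMSO arrays at 4 h, and 525.0 and 582.4 in extract arrays against 343.7 and 261.9 in DMSO arrays at 12 h. No extract array overlapped a DMSO array of its time at either. The averaged rises were 1.76-fold (1.49 to 2.08, adjusted p = 0.0112) at 1452161_at and 2.12-fold (1.71 to 2.64, adjusted p = 0.0112) at 1452160_at, larger at the dimmer probe sets, though the 3 estimates were not tested against each other. They are readings of 1 gene and not replicates, and over the 8 arrays their log2 signals correlated with r between 0.927 and 0.984. The calls of all 3 were lost without any 1 of 5 arrays (either extract array of 12 h, either DMSO array of 4 h, or DMSO 12 h replicate 2), with an adjusted p between 0.0527 and 0.0855 at the brightest. Without replicate 1 of extract at 4 h the call at 1452161_at was lost as well, and without replicate 2 that at 1452160_at.

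With time, *Tiparp* fell in extract-treated DCs. At 12 h over 4 h the fold was 0.64 in extract (0.543 to 0.755, log2 fold change -0.64, adjusted p = 0.00608) and 0.825 in DMSO (0.699 to 0.972, adjusted p = 0.301). At 1452161_at the fold in extract was 0.644 (adjusted p = 0.0493) and at 1452160_at it was 0.638 (adjusted p = 0.131). These 2 falls are the only members called in extract, where 1.31% of all probe sets were called lower and 1.55% higher (591 and 698, or 379 and 334 with the arrays centred on their medians). The test of the difference between extract and DMSO in this change over time did not pass (log2 difference -0.37, standard error 0.16, unadjusted p = 0.0352, adjusted p = 1.0). The fall in extract was lost at both probe sets without replicate 1 of the extract arrays at 4 h or at 12 h (adjusted p = 0.061 and 0.0674 at the brightest), and at 1452161_at also without any other 1 array but DMSO 12 h replicate 2. In order of mean, the groups at the brightest probe set ran [BF/S+L/Ep] at 4 h (2830.8 ± 166), [BF/S+L/Ep] at 12 h (1810.2 ± 30.2), DMSO at 4 h (1618 ± 43.5) and DMSO at 12 h (1335.4 ± 83.7).

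*Cyp1a1* encodes the cytochrome P450 enzyme that is the usual gauge of AhR activity in liver. Its probe set, 1422217_a_at, had 27.7 and 10.4 in extract arrays at 4 h, where DMSO arrays had 55.5 and 27.4, and 47.5 and 41.1 in extract arrays at 12 h, where DMSO arrays had 31.8 and 40.9. Every one of these signals was under the background reference, and between 13 and 44 of the 83 receptor probe sets were brighter on the same array. No fold is given, and a level of *Cyp1a1* under this background could not have been detected.

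*Cyp1b1* encodes a related enzyme that is expressed in many tissues outside the liver. At its main probe set, 1416612_at, extract arrays had 170.8 and 137.7 at 4 h, brighter than all 83 receptor probe sets on those arrays, against 38.8 and 65.1 in DMSO arrays, where 25 and 15 receptor probe sets were brighter. At 12 h extract arrays had 132.2 and 85.9 (0 and 2 brighter), against 55.3 and 69.7 in DMSO arrays (24 and 5 brighter). All extract signals were above their own reference and all DMSO signals under it, and the signal of 85.9 was under the reference of 107 of the DMSO array with the highest one. *Cyp1b1* was at least 1.63-fold higher in extract at 4 h (adjusted p = 0.969), at least 1.14-fold at 12 h (adjusted p = 0.896) and at least 1.36-fold on the average (adjusted p = 0.494), as bounds of the extract mean over the reference, and none passed. These p-values are from limma on the fitted log2 signals, with DMSO signals under the reference, and do not test the bounds. On the second DMSO array at 12 h the reference of 82.0 falls in a gap between receptor signals of 67.0 and 83.7, and the *Cyp1b1* signal of 69.7 lies in that gap. Probe set 1416613_at was above the reference on 1 array and 1432081_at on none. Probe set 1416613_at appears among the calls over time in DMSO (adjusted p = 0.0478, with 0.921% of all probe sets called lower and 1.18% higher, 415 and 533, or 290 and 215 with the arrays centred on their medians), but its signals there, 1.3 and 0.9 at 12 h against 47.8 and 18.4 at 4 h, were all under the reference, so no direction is read from it.

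*Nqo1* encodes a quinone reductase that both AhR and NRF2, the regulator of the antioxidant response, induce. Its probe set, 1423627_at, had 589.8 and 635.1 in extract arrays at 4 h, against 456.4 and 430.9 in DMSO arrays. Its signals at 12 h were 611.7 and 667.5 in extract arrays, against 436.6 and 355.7 in DMSO arrays. All 4 extract arrays were above all 4 DMSO arrays. The averaged fold was 1.50 (1.25 to 1.79, log2 fold change 0.58, standard error 0.12), which did not pass (adjusted p = 0.134) and stood at place 106 of all probe sets by p. The fold was 1.38 at 4 h (1.07 to 1.78, adjusted p = 0.988) and 1.62 at 12 h (1.26 to 2.09, adjusted p = 0.386), and the difference between them was 0.23 on the log2 scale (standard error 0.24, adjusted p = 1.0). The means ran extract at 12 h (640 ± 39.5), extract at 4 h (612 ± 32), then DMSO at 4 h (444 ± 18) and DMSO at 12 h (396 ± 57.2), and within each treatment the times overlapped.

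**Figure D3:**
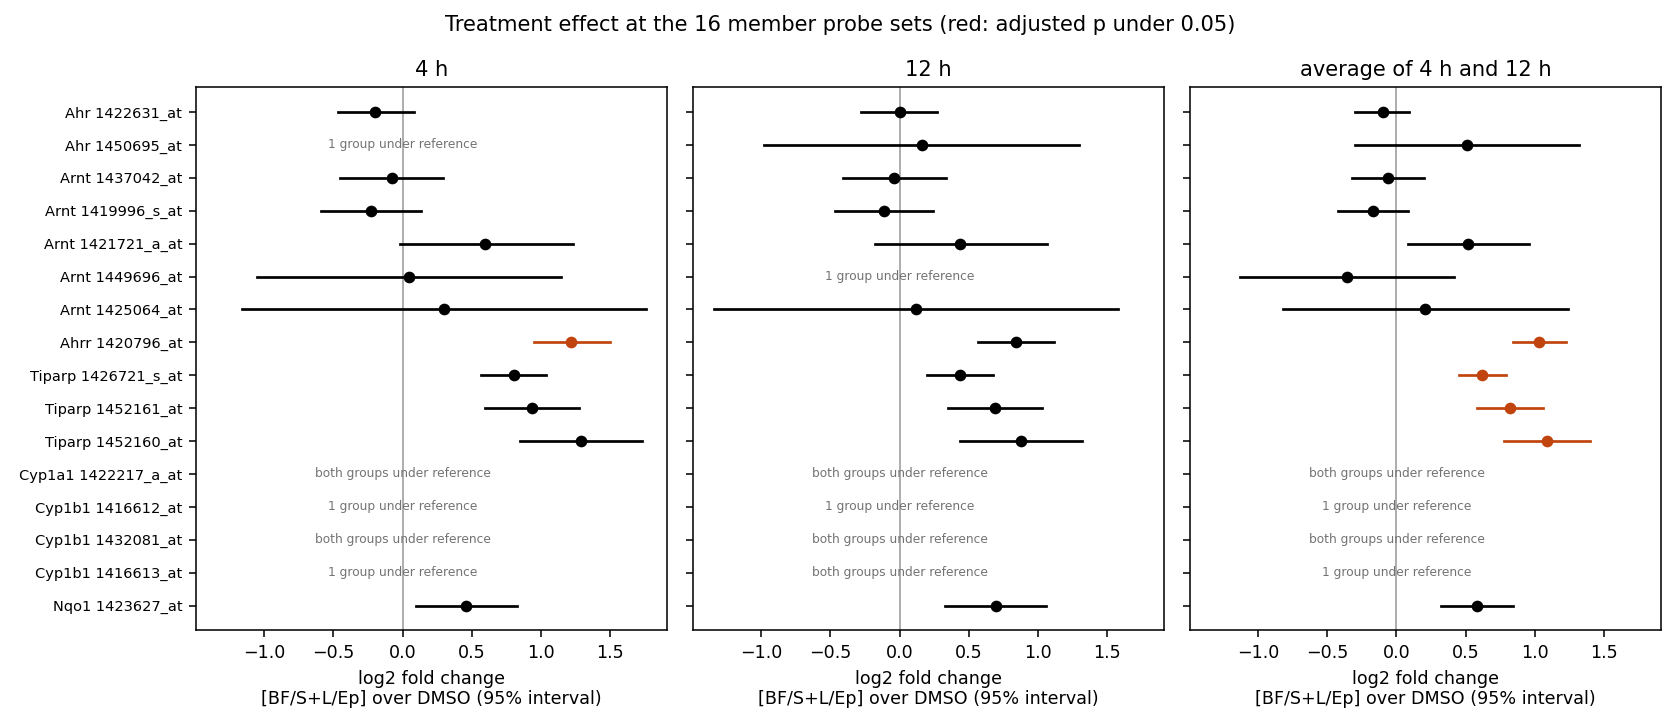
Log2 fold change of [BF/S+L/Ep] over DMSO with its 95% interval at the 16 member probe sets, at 4 h, at 12 h and on the average of both (limma), with adjusted p under 0.05 in red. At 4 h and 12 h no point is drawn where a group was under the background reference. On the average none is drawn where both groups of a treatment were under it. The averaged points of 1450695_at (*Ahr*) and 1449696_at (*Arnt*) rest in part on a group under it. *Ahrr* is called at 4 h (1.22), and *Ahrr* (1.03) and the 3 probe sets of *Tiparp* (0.62, 0.82 and 1.09) on the average.

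Counted over the set, 1 of 16 member probe sets was called at 4 h, against 0.00444% of all probe sets called higher. At 12 h limma called 0 of 16, against 0.0155% of all called higher and 0.00444% lower (7 and 2 probe sets, or 7 and 0 with the arrays centred on their medians), and 6 of 16 had an unadjusted p under 0.05, as did 2684 of 45037 in all, 1 of the 6 being *Cyp1b1* 1416613_at with both groups under the reference. On the average 4 of 16 were called, all higher, against 0.0888% of all called higher and 0.0178% called lower. These 4 belong to 2 genes and are part of the 48 probe sets called in all, 40 higher and 8 lower, a split that was 30 and 1 with each array centred on its median. For the difference between times limma called 0 of 16 and 0.0% of all, and 2 of 16 had an unadjusted p under 0.05 (1426721_s_at of *Tiparp* and the dim 1416613_at of *Cyp1b1*), as did 1647 of 45037 in all. The extract arrays lay above the DMSO arrays without overlap at 9 of 16 member probe sets at 4 h (15.1% of all) and at 9 of 16 at 12 h (15.1% of all). At 8 of 16 they did so at both times, against 3.34% of all and 4.65% of the 23336 probe sets that exceeded the reference on 4 or more arrays. They lay under the DMSO arrays at both times at 0 of 16, against 4.29% of all and 4.48% of those 23336. At 4 h alone they lay under without overlap at 1 of 16, the main probe set of *Ahr*. At 12 h alone they did so at 2 of 16, 1 of *Arnt* and 1 of *Cyp1b1*, both dim. The 9 that lay above at 12 h include *Cyp1a1*, with both groups under the reference, so no direction is read from it. The 8 that lay above at both times were *Ahrr*, *Nqo1*, 1421721_a_at of *Arnt*, 3 of *Tiparp* and 2 of *Cyp1b1*, some of them dim or of the same gene. Among them 1416613_at of *Cyp1b1* exceeded the reference on 1 array, with both groups under it at 12 h. It falls outside the filter behind the shares of 4.65% and 4.48%, which the 16 member probe sets did not pass through.

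**Figure D4:**
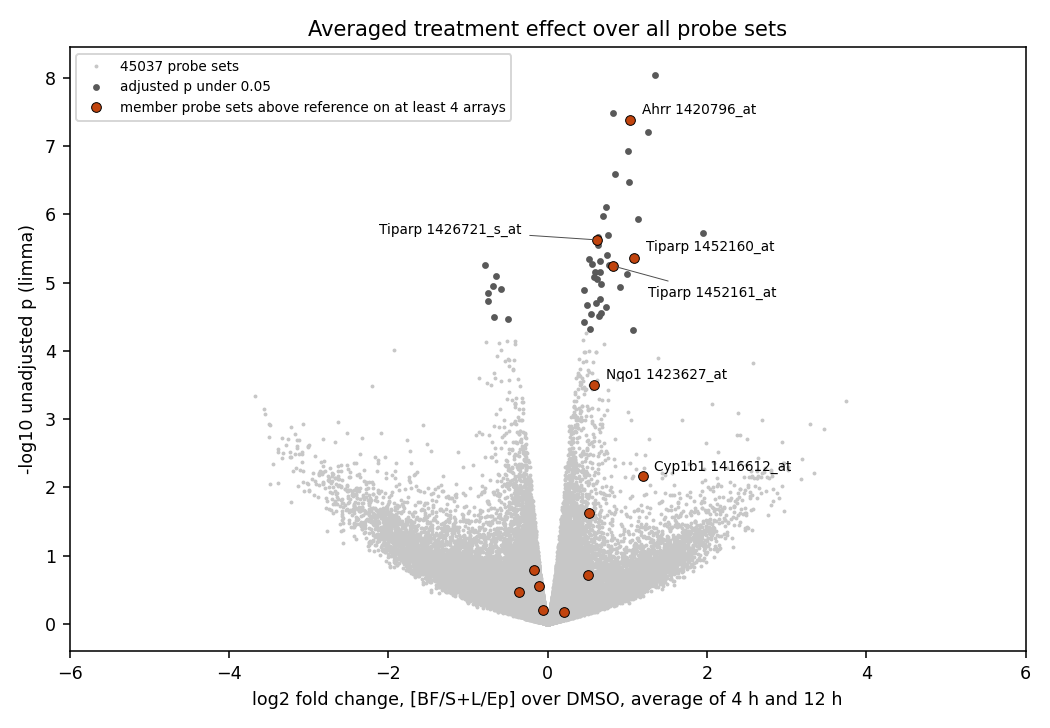
Averaged log2 fold change of [BF/S+L/Ep] over DMSO (horizontal) against -log10 of the unadjusted p from limma (vertical) for 45037 probe sets, with those called in dark grey and the member probe sets above the reference on 4 or more arrays in red. *Ahrr* stands at 1.03 and place 3 by p, *Nqo1* at 0.58 among probe sets that were not called, and the fitted value of *Cyp1b1* is against DMSO arrays under the reference.

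Markers of other cell types were measured on the same arrays, and several of their summed signals differed between treatments without overlap. The summed signal of 11 neutrophil markers was 7363 to 10492 in extract arrays against 6245 to 7326 in DMSO arrays, and 3610 to 4517 against 3718 to 4452 without *Mmp8*. Of these markers 6 were above the reference on 4 or more arrays, and *Elane* and *Cxcr2* were under it on all 8. For 8 platelet markers, 6 of them above the reference on 4 or more arrays, the sum overlapped at 4 h, with 18963 and 14568 in extract arrays against 12954 and 15183 in DMSO arrays. At 12 h it was 29777 and 28184 in extract arrays against 20014 and 20902 in DMSO arrays. Without *Ppbp* it overlapped at 4 h too (17269 and 12975 against 12316 and 14203), and at 12 h was 23235 and 21877 in extract arrays against 17608 and 18669 in DMSO arrays. The sums of 3 lists were lower in extract arrays than in DMSO arrays at both times, with 0 genes called by limma in any treatment comparison. For 9 macrophage markers, 8 of them above the reference on 4 or more arrays and *Marco* on none, the sum was 57707 and 53633 in extract arrays against 58324 and 60340 in DMSO arrays at 4 h, and 59904 and 62807 in extract arrays against 63736 and 63753 in DMSO arrays at 12 h. Most of this sum was *Csf1r* (averaged log2 fold change -0.10, adjusted p = 0.839). *Mertk* (-0.35, adjusted p = 0.456), *Mrc1* (-0.27, adjusted p = 0.411) and *C1qb* (-0.12, adjusted p = 0.756) lay lower at both times. *Adgre1* (0.24, adjusted p = 0.639) and *C1qa* (0.10, adjusted p = 0.791) lay higher at both times, so the list did not share a direction. For 6 eosinophil and basophil markers the sum was 2747 and 2846 in extract arrays against 3206 and 3267 in DMSO arrays at 4 h, and 1912 and 1727 in extract arrays against 2353 and 1925 in DMSO arrays at 12 h, most of it *Siglecf* (-0.24, adjusted p = 0.561), with 5 markers under the reference on all 8 arrays. For 11 stromal cell markers, 5 of them above the reference on 4 or more arrays and 3 under it on all 8, it was 787 and 756 in extract arrays against 917 and 791 in DMSO arrays at 4 h, and 793 and 839 in extract arrays against 1149 and 914 in DMSO arrays at 12 h. Of those 5, *Vcam1* had -0.55 (adjusted p = 0.533), *Cxcl12* -0.90 (0.714), *Pdgfrb* -0.30 (0.923) and *Col1a2* -0.16 (0.94). *Col1a1*, with both DMSO groups under the reference, had a fitted 0.55 (adjusted p = 0.822), so this list did not share a direction either. The reference was itself lower on extract arrays, and its part in this dim sum was not tested. The part of these markers in the rises of *Ahrr* and *Tiparp* was not tested. The DC markers summed to 209753 to 235808 in extract arrays against 213148 to 224529 in DMSO arrays, which overlap.

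Other genes of the AhR network were taken as 6 lists, each gene at its brightest probe set. Over all genes above the reference on 4 or more arrays, the median averaged log2 fold change was -0.02, and 5% lay above 0.33 and 5% under -0.38. The chaperones and coactivators of AhR had 20 of 23 genes measured, 18 above the reference on 4 or more arrays, 0 called by limma in any treatment comparison, and a median of 0.02. Their brightest genes, the heme protein gene *Cyb5a* (-0.05, adjusted p = 0.925), the chaperone gene *Hsp90aa1* (0.02, adjusted p = 0.975) and the corepressor gene *Nrip1* (0.03, adjusted p = 0.964), were close to 0.

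Of 22 other genes known as AhR targets, 18 were measured and 10 were above the reference on 4 or more arrays, with a median of 0.004 and 1 called higher on the average. The called gene was *Serpinb2*, which encodes plasminogen activator inhibitor type 2, with 221.5 and 259.5 in extract arrays and 45.2 and 62.8 in DMSO arrays at 4 h, and 448.6 and 393.4 in extract arrays and 150.7 and 105.2 in DMSO arrays at 12 h. With DMSO under the reference at 4 h, it was at least 2.54-fold higher at 4 h (adjusted p = 0.116) and at least 2.91-fold higher on the average (adjusted p = 0.00745), where the fitted log2 value of 1.95 rests in part on signals under the reference and was 1.45 with the offset of 50. The averaged call was lost without replicate 2 of the extract arrays at 4 h (adjusted p = 0.0522) and without either extract array at 12 h (0.0726 and 0.0684 without replicate 1 or 2). The brightest genes of this list were *Nfe2l2*, which encodes NRF2 (0.17, adjusted p = 0.647), the cytokine gene *Il1b* (-0.13, adjusted p = 0.761) and the cytokine signalling inhibitor gene *Socs2* (-0.17, adjusted p = 0.699). Without overlap at both times, 2 of the 18 lay higher in extract arrays (*Serpinb2* and *Nfe2l2*) and 2 lower. The lower ones were *Vav3* (-0.40, adjusted p = 0.266) and *Aldh3a1*. Of all probe sets 3.34% lay higher in this way and 4.29% lower. *Cyp1a2*, *Aldh3a1*, *Gsta2*, *Ereg* and the tryptophan-degrading enzyme gene *Ido1* were under the reference on all 8 arrays, as *Cyp1a1* was.

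Of 19 genes of the bHLH-PAS family, to which AhR and ARNT belong, 12 were above the reference on 4 or more arrays, 0 were called and the median was 0.01. *Hif1a*, the hypoxia-inducible partner of ARNT, had 0.02 (adjusted p = 0.974), and the coactivator genes *Ncoa2* (0.01, adjusted p = 0.985) and *Ncoa3* (-0.02, adjusted p = 0.978) were as close to 0. For tryptophan and AhR ligand metabolism, 7 of 16 genes were above the reference on 4 or more arrays, 0 were called and the median was 0.04, with *Kynu* at 0.04 (adjusted p = 0.944), *Haao* at 0.38 (adjusted p = 0.681) and *Maoa* at -0.14 (adjusted p = 0.843). *Tph1*, *Tph2*, *Ddc* and *Ido1* of this list were under the reference on all 8 arrays. Other PARP and cytochrome P450 genes, relatives of *Tiparp* and *Cyp1b1*, had 17 of 23 above the reference on 4 or more arrays, 0 called and a median of 0.06, with *Cyp51* at -0.03 (adjusted p = 0.963), *Parp9* at 0.07 (adjusted p = 0.894) and *Parp12* at 0.06 (adjusted p = 0.913).

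The NRF2 targets and regulators, taken because NRF2 also induces *Nqo1*, had all 14 measured genes above the reference on 4 or more arrays, 1 called higher and a median of 0.18. *Gclc*, the catalytic subunit of the enzyme that starts glutathione synthesis, had 1740.8 and 1959.0 in extract arrays and 1255.0 and 1272.3 in DMSO arrays at 4 h, and 1459.0 and 1290.2 in extract arrays and 880.6 and 823.5 in DMSO arrays at 12 h. It rose on the average (by 0.62 on the log2 scale, with a standard error of 0.09 and an adjusted p of 0.014), beside the 0.58 of *Nqo1*. This call was lost without any 1 array other than replicate 1 of extract at 4 h (adjusted p between 0.0684 and 0.135). The extract arrays also lay above the DMSO arrays at both times for *Txnrd1* (0.40, adjusted p = 0.134), *Srxn1* (0.33, adjusted p = 0.208), *Slc7a11* (0.28, adjusted p = 0.56) and *Nfe2l2* (0.17, adjusted p = 0.647), none of which passed. With *Gclc* these were 5 of the 14 genes, and 0 lay lower at both times. Among probe sets above the reference on 4 or more arrays, the shares were 4.65% and 4.48%. *Sqstm1*, the remaining gene among the 3 brightest, had 0.13 (adjusted p = 0.78).

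**Figure D5:**
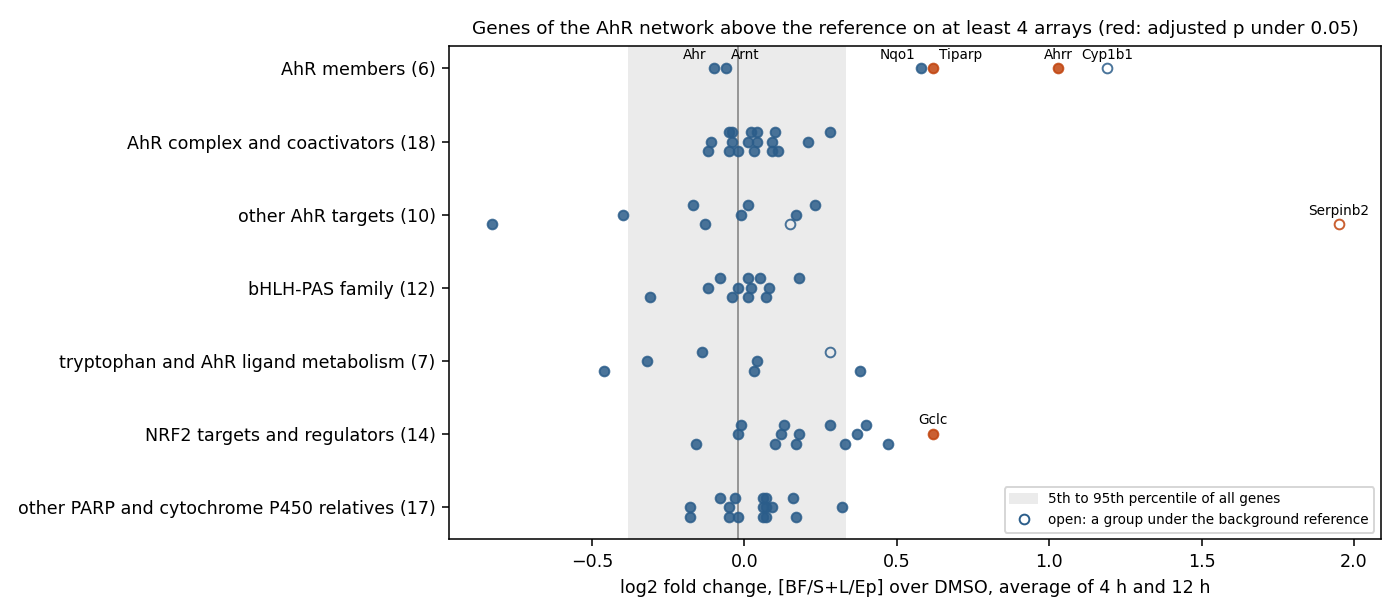
Averaged log2 fold change of [BF/S+L/Ep] over DMSO for the AhR members and 6 lists of related genes, 1 point per gene above the reference on 4 or more arrays (number in brackets), red where called, with a grey band from the 5th to the 95th percentile of all genes, -0.38 to 0.33. Open circles mark genes with a group under the reference, whose fitted values are not bounds, among them *Cyp1b1* and *Serpinb2*. *Ahrr*, *Tiparp*, *Nqo1* and *Cyp1b1* lie right of the band, *Ahr* and *Arnt* inside it, and of the lists *Serpinb2* (1.95) and *Gclc* (0.62) are called.

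The genes whose pattern over the 8 arrays was most like that of *Ahrr* were ranked by Pearson's r of log2 signals. They were 10863 genes above the reference on 4 or more arrays, each at the probe set with the highest r, which need not be the main one. The 5 nearest were *Cmtr1* (0.971), *Tmem51* (0.966), *Top1* (0.965), *Phc2* (0.962) and *Uso1* (0.957), with averaged log2 fold changes between 0.19 and 0.35, none called. Of the other members *Cyp1b1*, whose DMSO signals were all under the reference, stood at place 23 (0.915, probe set 1416612_at). *Nqo1* stood at place 119 (0.825), *Arnt* at 124 (0.821, probe set 1421721_a_at), *Tiparp* at 162 (0.803, probe set 1452160_at) and *Ahr* at 1136 (0.587, probe set 1450695_at). For *Ahr* the nearest were *Dock9* (0.981), *Marveld1* (0.961), *Pde2a* (0.955), *Cd302* (0.953) and *Proser1* (0.951), whose mean signals were higher at 12 h than at 4 h in both treatments, as that of *Ahr* was. The same 5 genes led each ranking when only genes above the reference on all 8 arrays were used. Between main probe sets, *Ahrr* and *Nqo1* had an r of 0.825, *Tiparp* and *Nqo1* 0.753, *Ahrr* and *Tiparp* 0.680, *Ahr* and *Tiparp* -0.766 and *Ahr* and *Arnt* -0.111. At main probe sets *Ahr* and *Ahrr* had -0.193, and *Arnt* and *Ahrr* -0.18. The places of *Ahr* and *Arnt* in the ranking for *Ahrr* thus rest on their dimmer probe sets. These values describe 8 arrays that share 2 treatments and 2 times, and carry no test.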

How the data were processed

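Gene expression was measured in mouse BMDCs on 8 Affymetrix Mouse Genome 430 arrays, 2 for each treatment and time, grouped by the sample labels. The intensity values used are the deposited MAS5 signals, which the authors made from the scanned images, 1 per probe set on the linear scale, scaled so that the mean after trimming 2% at both ends is 500 on every array. No MAS5 version is given in the sources used here, and detection calls were not used. MAS5 subtracts a local background and a mismatch signal, so signals near the reference are noisy on the log2 scale. Probe sets were named with the platform annotation. The 64 control probe sets of 45101 were left out, and of the 45037 that remained 34945 have 1 symbol, 932 have several and 9160 have none.

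A model of 4 group means was fitted to the log2 signals of the 8 arrays in limma 3.58.1 (R 4.3.3, statmod 1.5.0), moderated with an intensity trend (4 residual and 8.833 prior degrees of freedom). All 45037 probe sets entered the Benjamini-Hochberg adjustment of the two-sided p-values, called under 0.05, and intervals are 95%. The fit was tested on simulated data. Where both arrays of a group lay under their own background reference, the fold is a bound against that reference, and where both groups did, no fold is given. For the averaged fold of a member, this applied only where both groups of a treatment lay under it. An adjusted p beside a bound is from limma on the fitted log2 signals and does not test the bound. Precision is limited by the number of arrays. Motifs, counts and figures were made with Python 3.11.15, pandas 2.3.3 and matplotlib 3.10.9.

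The members and the gene lists were chosen with earlier results of these data known. Named genes are the members at every probe set, in each list the called genes and the 3 brightest, *Cyp1a2*, *Nfe2l2*, *Hif1a* and *Ido1*, the 5 genes most like *Ahrr* and *Ahr*, and of the markers *Itgax* and those a result turns on, and 1 gene is not reported here. *Txnrd1*, *Srxn1*, *Slc7a11*, *Vav3*, the stromal cell markers, and the genes listed as under the reference, were named after their values were seen. Alternatives were quantile normalization, centring on the median, an offset of 50, a filter on dim probe sets, no intensity trend, robust moderation, a replicate block, a fit of only the 4 arrays compared, other probe sets above the reference on 4 or more arrays, and leaving out each array. For *Serpinb2* and *Gclc* they were added after seeing the data.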

Additional observations from a re-analysis of the deposited data

How the results depend on the processing

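With 2 arrays per group, the calls depended on how the spread was estimated. Without the intensity trend 0 members were called at 4 h, 0 on the average and 0 over time in either treatment, and 0 of all probe sets were called in any comparison. *Ahrr* then had an adjusted p of 0.335 at 4 h and 0.332 on the average, and *Tiparp* 0.472 on the average. With only the 4 arrays of a comparison, 0 members were called at 4 h (*Ahrr* adjusted p = 0.0536). Quantile normalization, centring on the median, the offset of 50, the filter on dim probe sets and robust moderation each called 1 member at 4 h and 4 on the average. The counts at 12 h and for the difference between times were 0 under every alternative run. With 1 array left out, the members called numbered 0 to 1 at 4 h, 1 to 4 on the average, 0 to 0 over time in DMSO and 0 to 2 over time in extract. Over time in DMSO, 0 members were called with centring, the offset, the filter, robust moderation, the replicate block or only the 4 arrays, against 1 otherwise, a probe set with both groups under the reference. Over time in extract, 1 was called with centring, the offset, robust moderation or only the 4 arrays, against 2.

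Of all probe sets, 2 were called at 4 h, against 1 with the offset or only the 4 arrays, 9 at 12 h, against 4 with the offset and 3 with only the 4 arrays, and 48 on the average, against 31 with centring. Over time, 948 were called in DMSO and 1289 in extract, against 505 and 713 with centring, and in extract 711 with only the 4 arrays. With 1 array left out these totals ranged from 0 to 3 at 4 h, 0 to 12 at 12 h, 8 to 54 on the average, 310 to 1013 over time in DMSO and 481 to 1089 in extract. Same-numbered arrays deviated from their group means with correlations between -0.027 and 0.109. Weak correlations between groups of 2 arrays cannot show whether the numbers pair the samples. With the replicate number as a block, the members called were 1 at 4 h, 0 at 12 h and 4 on the average, as without it, and 4 probe sets in all were called at 4 h and 56 on the average.

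Directions turned for *Ahr*, *Arnt* and 2 changes over time, none of which passed the test. For *Ahr* the probe set 1450695_at gave 0.86 at 4 h, 0.16 at 12 h, 0.51 on the average, -0.69 for the difference and -0.08 over time in extract (log2), and centring gave 0.07 at 12 h. At 1450695_at the values at 4 h, on the average and for the difference are fitted ones that rest on DMSO signals under the reference. For *Arnt*, 1421721_a_at gave 0.60 at 4 h, 0.44 at 12 h, 0.52 on the average, -0.16 for the difference, 0.32 over time in DMSO and 0.16 in extract. In the same order 1425064_at gave 0.30, 0.12, 0.21, -0.18, 0.61 and 0.43, while 1449696_at gave 0.05 at 4 h, -0.81 for the difference and 0.08 over time in DMSO. The difference at 1449696_at rests on extract signals under the reference at 12 h. Centring gave *Arnt* 0.04 at 12 h and 0.01 on the average. With 1 array left out, *Ahr* ranged from -0.09 to 0.08 at 12 h, and *Arnt* from -0.29 to 0.12 at 4 h, -0.24 to 0.17 at 12 h, -0.16 to 0.04 on the average, -0.16 to 0.25 for the difference and -0.32 to 0.10 over time in extract. Over time in extract, *Ahrr* ranged from -0.14 to 0.12 and *Nqo1* from -0.0008 to 0.13. The causes were not tested. *Ahrr*, *Tiparp*, *Nqo1* and *Cyp1b1* kept their direction between treatments in every alternative run, which did not include the other probe sets of *Cyp1b1*. Of these 1432081_at, under the reference on all 8 arrays, had a fitted average of -0.66, from which no direction is read.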
